A study of Mus musculus with 6 samples.

Results

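The genes described here encode effector proteins of mast cells, basophils and eosinophils: granule proteases, subunits of the receptor for immunoglobulin E (IgE) and eosinophil granule proteins. Of the 10 genes listed by symbol, 9 were measured, with 11 probe sets of the 45101 on the array, and they stand among 18194 genes measured in all. Prss34, a tryptase-like protease of mouse basophils, had no probe set under its symbol. The measured genes are Cpa3, Mcpt8, Gzmb, Cma1, Tpsb2, Fcer1a, Ms4a2, Epx and Prg2.

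The series holds 6 Affymetrix arrays of sorted mouse bone marrow cells, 3 from each of 2 genotypes. Bone marrow cells positive for cKit were infected with MLL-AF9, a fusion oncogene of acute myeloid leukaemia, linked to yellow fluorescent protein (YFP), and 50000 of them were given with 250000 unmodified support cells to lethally irradiated wild-type recipients aged 12 weeks. The WT group (n = 3) had the genotype MLL-AF9 EF1αwt/wt ROSAwt/CreERT2, and the N1-IC group (n = 3) carried EF1αwt/lsl-N1-IC in its place beside MLL-AF9 and ROSAwt/CreERT2. N1-IC is the intracellular, active part of the Notch1 receptor. Both groups carried the tamoxifen-dependent recombinase CreERT2, and both received 2 injections of tamoxifen (0.2 mg per g of body weight) from 4 weeks after transplantation and were analysed 6 days after the last one. The sorted cells, called LGMP in the labels, expressed YFP, cKit, CD34 and the Fc gamma receptors II and III, and lacked lineage antigens and Sca1. All WT samples are labelled male and all N1-IC samples female, so genotype and sex cannot be told apart, and the labels do not say whether the samples of a group came from separate recipients. The p-values therefore measure the spread between these samples, which may be technical.

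The deposited distributions of the 6 arrays were nearly alike, with medians of 49.6 to 51.0 intensity units (5.63 to 5.67 on the log2 scale), and their lower quartiles lay at 14.5 to 15.1 units. Kit, Cd34 and the Fc gamma receptor gene Fcgr3, which encode proteins of the sort gate, lay above the array median on all 6 arrays, as did all 11 measured genes of the granulocyte-monocyte progenitor and primary granule list. WT replicate 2 stood apart from its label: Xist, a noncoding RNA made from the inactive X chromosome of females, stood at 10.70 log2 units there, against 5.64 and 5.42 in WT replicates 1 and 3 and at least 12.73 on every N1-IC array. The Y-linked gene Eif2s3y was at 10.34 on that array, 11.31 and 11.26 on the other WT arrays and at most 3.46 on every N1-IC array. In WT replicate 2 also, 11 of 17 erythroid and megakaryocyte genes had their highest value, and values without it are given for the 9 genes and, where the fold change moved by over 1.5 times, for the genes of further lists with the smallest p or without overlap. Nrarp, a target gene of Notch, lay between 6.41 and 7.22 on the WT arrays and between 8.01 and 11.33 on the N1-IC arrays.

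Mast cells and basophils store proteases in their granules and carry the high-affinity IgE receptor, which is built from an alpha chain (Fcer1a) that binds IgE, a beta chain (Ms4a2) that amplifies the signal and gamma chains (Fcer1g) shared with other Fc receptors. When antigen crosslinks the bound IgE, the granules are released. Eosinophils store cationic proteins instead, among them eosinophil peroxidase (Epx) and major basic protein (Prg2). In the marrow these lineages arise from progenitors that depend on GATA transcription factors, and basophil and eosinophil precursors overlap in part with the granulocyte-monocyte progenitors from which the sorted cells take their name.

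Promoter sequence from RefSeq (GRCm38.p6) was found for 8 of the 10 genes and is shown because GATA factors are known regulators of these lineages. The 120 bases before the start of 5 genes are printed 5′ to 3′ on the gene's own strand, with capitals for 4 hexamers of the GATA motif on either strand. These are the hexamer AGATAA, the hexamer AGATAG, the hexamer TGATAA and the hexamer TGATAG. The first 3 hold a match and the last 2 do not. The windows are those of Cpa3 (chr3:20242182-20242301, minus strand), Fcer1a (chr1:173227230-173227349, minus strand), Ms4a2 (chr19:11623720-11623839, minus strand), Mcpt8 (chr14:56085198-56085317, minus strand) and Epx (chr11:87875537-87875656, minus strand).
Cpa3: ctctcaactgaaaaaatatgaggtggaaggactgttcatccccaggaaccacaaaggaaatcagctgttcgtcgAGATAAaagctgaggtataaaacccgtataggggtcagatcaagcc
Fcer1a: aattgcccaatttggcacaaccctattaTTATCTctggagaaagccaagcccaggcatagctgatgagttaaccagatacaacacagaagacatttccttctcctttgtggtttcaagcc
Ms4a2: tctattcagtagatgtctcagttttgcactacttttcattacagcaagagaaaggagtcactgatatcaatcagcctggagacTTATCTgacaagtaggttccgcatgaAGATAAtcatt
Mcpt8: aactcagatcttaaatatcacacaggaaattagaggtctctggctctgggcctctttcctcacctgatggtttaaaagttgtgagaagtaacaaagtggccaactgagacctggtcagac
Epx: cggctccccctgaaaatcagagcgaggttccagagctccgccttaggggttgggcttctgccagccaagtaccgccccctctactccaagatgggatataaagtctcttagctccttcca

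Over windows of 300 bases, from 250 before to 50 after the start, 5 of the 8 genes (Cpa3, Prss34, Ms4a2, Fcer1a and Cma1) held a match and 3 (Mcpt8, Gzmb and Epx) did not. Of all 32851 promoter windows of this length 29.8% held a match. Ms4a2 held 3 matches, which began 224, 37 and 11 bases before its start, and the match of Cpa3 began 46 bases before its start. A match is a string of letters and not a bound site, and a window without one says nothing about the factor.

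None of the 9 genes differed between the genotypes beyond the spread of the arrays. In the limma fit over 18194 genes 0 of 9 passed an adjusted p under 0.05, where 0.0055% of all genes did. That share is 1 gene, the Y-linked Eif2s3y, and the Notch target Nrarp did not pass (limma adjusted p = 0.618). An unadjusted p under 0.05 was found for 0 of 9, where 7.98% of all genes had one. The 3 arrays of one group overlapped those of the other for all 9 genes by their brightest probe set, while groups without overlap made up 14.8% of the whole table (8.32% with N1-IC higher and 6.52% with N1-IC lower). Of the 11 probe sets, 0 had an unadjusted p under 0.05, beside 7.69% of the 45101. By mean level 8 of the 9 genes were higher in N1-IC and 1 was lower, with a median log2 fold change of 0.30 against 0.01 over all genes. Single arrays moved that median. Dropping WT replicate 2 gave 0.76, dropping N1-IC replicate 1 gave 0.96, dropping WT replicate 1 gave 0.19 and dropping N1-IC replicate 3 gave 0.12. In sorted bulk cells, fewer cells of a type and less RNA per cell cannot be told apart.

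**Figure D1:**
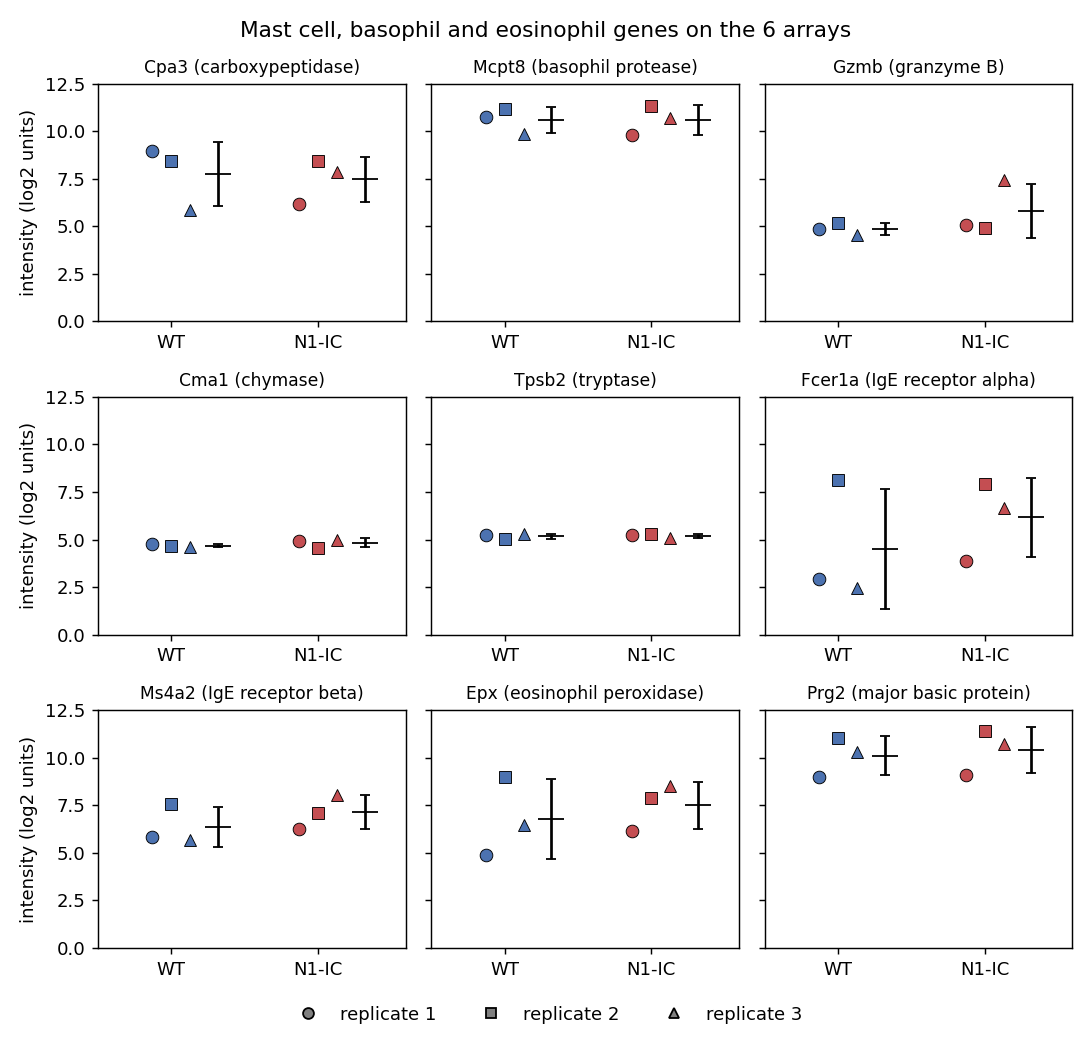
Each panel plots the log2 intensity of a gene's brightest probe set on the 3 WT arrays (blue) and the 3 N1-IC arrays (red), with the mean and SD of each group in black and the replicate number given by the marker shape. The groups overlap in all 9 panels, Fcer1a spans 5.70 log2 units over the 6 arrays, and Cma1 and Tpsb2 span 0.44 and 0.24.

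Among the granule proteases, Cpa3 encodes carboxypeptidase A3, which mast cells and basophils make from an early stage. Its log2 values were 8.98, 8.42 and 5.86 on WT replicates 1, 2 and 3, and 6.16, 8.43 and 7.85 on N1-IC replicates 1, 2 and 3. WT replicate 3 and N1-IC replicate 1 were low and the other 4 arrays high, so that each group held both levels. The group means were 7.75 ± 1.67 for WT and 7.48 ± 1.18 for N1-IC (SD, n = 3 each). The log2 fold change was -0.27 ± 0.95 (± standard error here and for the fold changes that follow; limma adjusted p = 0.933; 95% interval -2.58 to 2.04). Without WT replicate 3 the log2 fold change was -1.22 ± 0.70 (limma adjusted p = 0.487), and without WT replicate 2 it was 0.066.

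Mcpt8 encodes a granule serine protease that in mice is used as a marker of basophils. It was at 10.77, 11.17 and 9.86 on the WT arrays and at 9.79, 11.35 and 10.69 on the N1-IC arrays, above the array median on all 6. The lowest values were again those of WT replicate 3 and N1-IC replicate 1. Across the 6 arrays Mcpt8 and Cpa3 varied together (Pearson's r of 0.897, a description of arrays that share the progenitor sort). The group means of Mcpt8 were 10.60 ± 0.672 and 10.61 ± 0.784 (SD), a log2 fold change of 0.008 ± 0.48 with a 95% interval of -1.17 to 1.18 (limma adjusted p = 0.996), and 0.29 without WT replicate 2.

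Gzmb encodes granzyme B, a serine protease of cytotoxic lymphocytes that is also found in mast cells. It was at 4.88, 5.18 and 4.53 on the WT arrays and at 5.06, 4.90 and 7.43 on the N1-IC arrays. Only N1-IC replicate 3 lay above its array median, and it was 2.25 log2 units above the highest of the other 5 arrays. The log2 fold change was 0.94 ± 0.68 (limma adjusted p = 0.676; 95% interval -0.71 to 2.58), 0.12 without N1-IC replicate 3 and 1.09 without WT replicate 2.

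Cma1 and Tpsb2 encode a protease of the chymase family and a tryptase, both of connective tissue type mast cells. Cma1 was at 4.77, 4.67 and 4.62 on the WT arrays and at 4.95, 4.56 and 5.00 on the N1-IC arrays. Tpsb2 was at 5.22, 5.04 and 5.28 in WT and at 5.25, 5.28 and 5.08 in N1-IC by its brighter probe set, and its other probe set lay between 3.67 and 3.98 on the 6 arrays. Both genes were below the array median on all 6 arrays, and whether such values exceed background is unknown, because detection calls were not used here. Their log2 fold changes were 0.15 ± 0.14 and 0.020 ± 0.11 (limma adjusted p of 0.724 and 0.958), and 0.14 and -0.050 without WT replicate 2. Cma1 had 0.071 when N1-IC replicate 3 was left out and 0.29 when N1-IC replicate 2 was. The 95% intervals ran from -0.19 to 0.49 for Cma1 and from -0.24 to 0.28 for Tpsb2. If these values are background, the intervals say nothing about the transcripts.

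Fcer1a, the IgE-binding chain, had the widest range of the 9 genes. It was at 2.94, 8.15 and 2.46 on WT replicates 1, 2 and 3 and at 3.90, 7.95 and 6.68 on N1-IC replicates 1, 2 and 3. Each group held arrays above the array median (1 in WT and 2 in N1-IC) and arrays far below it, and 2 WT values lay under the lower quartile of their arrays. The group means were 4.52 ± 3.16 in WT and 6.18 ± 2.07 in the other group (SD), a log2 fold change of 1.66 ± 1.75 (limma adjusted p = 0.757; 95% interval -2.60 to 5.92). Without WT replicate 2 it was 3.48 ± 1.19 with a limma adjusted p of 0.798, and without WT replicate 3 it was 0.63. Because the lowest values lie near the floor, the size depends on the scale, and it was 0.89 on log2(value + 16).

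Ms4a2, the beta chain of the receptor, followed the order of Fcer1a in part. By its brighter probe set it was at 5.85, 7.55 and 5.66 on the WT arrays and at 6.27, 7.10 and 8.06 on the N1-IC arrays, and the dimmer probe set was at 4.04, 4.41, 2.80, 4.23, 4.55 and 5.29 in the same order of arrays. WT replicate 2 was the highest WT array and N1-IC replicate 3 the highest N1-IC array by both probe sets. The log2 fold changes were 0.79 ± 0.64 and 0.93 ± 0.47 (limma adjusted p of 0.733 and 0.656 over all probe sets, where 0.00887% passed). The brighter probe set had 1.39 ± 0.52 without WT replicate 2, 0.44 without WT replicate 3 and 0.33 without N1-IC replicate 3. The gamma chain gene Fcer1g varied far less, between 12.66 and 12.92 on the 6 arrays, and it had a log2 fold change of 0.07 ± 0.10.

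Epx, the eosinophil peroxidase gene, was at 4.89, 9.02 and 6.46 on the WT arrays and at 6.13, 7.87 and 8.51 on the N1-IC arrays. WT replicate 1 was the lowest and WT replicate 2 the highest of all 6, so the WT group spanned the whole range. The log2 fold change was 0.72 ± 1.13 (limma adjusted p = 0.84; 95% interval -2.01 to 3.45), 1.84 without WT replicate 2 and -0.23 without WT replicate 1. Prg2, the gene of major basic protein, was at 9.01, 11.03 and 10.30 in WT and at 9.10, 11.41 and 10.73 in N1-IC, above the array median on all 6 arrays. Replicate 1 was the lowest array of each group and replicate 2 the highest. The log2 fold change of Prg2 was 0.30 ± 0.73 (limma adjusted p = 0.902; 95% interval -1.47 to 2.08), and 0.76 without WT replicate 2.

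**Figure D2:**
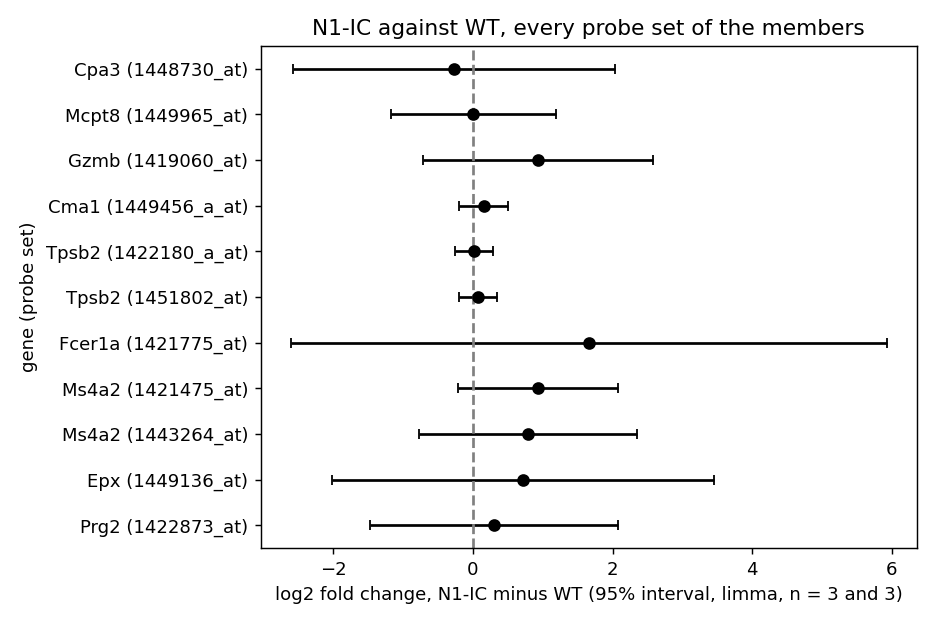
Points are log2 fold changes (N1-IC minus WT) of the 11 probe sets of the 9 genes in a limma fit over all probe sets, and bars are 95% intervals from 3 arrays a group. All 11 intervals include 0, and the widest is that of Fcer1a.

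By the SD within groups, pooled over both, 7 of the 9 genes were at or above percentile 90 among genes of like level. The pooled value does not show that both groups varied. For Gzmb the SD was 0.325 in WT and 1.41 in N1-IC. The SD within groups, pooled over both, was 2.67 log2 units for Fcer1a, 1.71 for Epx, 1.44 for Cpa3, 1.11 for Prg2, 1.02 for Gzmb, 0.973 for Ms4a2 and 0.73 for Mcpt8. Among genes whose mean level lay within 1 log2 unit, these SDs were at percentiles between 94.8 (Ms4a2) and 99.98 (Fcer1a). Cma1 and Tpsb2 were at percentiles 53.3 and 23.8. A range of at least 2 log2 units over the 6 arrays was found for 6 of the 9 genes and for 3.96% of all genes. The mean of the 9 genes was 6.37, 7.80 and 6.11 on WT replicates 1, 2 and 3 and 6.29, 7.65 and 7.78 on N1-IC replicates 1, 2 and 3, so that 3 arrays from both groups were high and 3 low.

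The same 3 arrays, WT replicate 2 and N1-IC replicates 2 and 3, held the 3 highest values of Fcer1a, Ms4a2, Epx and Prg2. These are 4 of the 9 genes. Over all genes 4.09% had their 3 highest values on these arrays, and among the 721 genes with a range of at least 2 log2 units 9.85% did. The arrays were picked after the values were seen, so the counts describe these arrays only. The pair Fcer1a and Epx had a Pearson's r of 0.884 over the 6 arrays, Fcer1a and Ms4a2 one of 0.880, and Epx and Prg2 one of 0.868, whereas Cpa3 and Epx had 0.199.

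**Figure D3:**
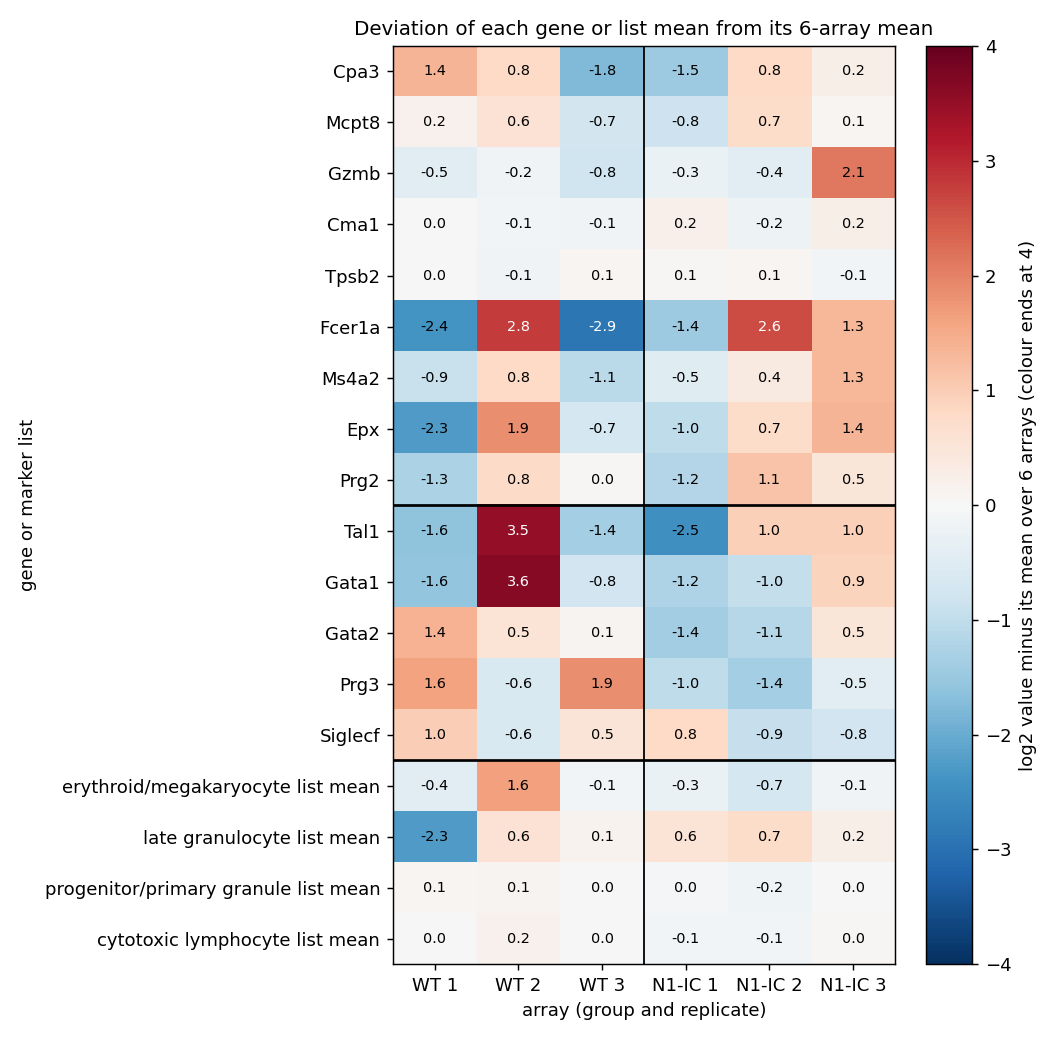
Each cell gives the log2 value on an array (columns, 3 WT and 3 N1-IC) minus the mean over the 6 arrays, for the 9 genes (top block), 5 related genes (middle block) and the mean of 4 marker lists (bottom block), in log2 units. Fcer1a, Ms4a2, Epx and Prg2 are above their means on WT replicate 2 and N1-IC replicates 2 and 3, Gzmb stands out on N1-IC replicate 3 alone, and the erythroid and megakaryocyte list is high on WT replicate 2.

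Markers of other cell types moved with some of these values. The erythroid and megakaryocyte list (17 of 20 genes measured) had summed intensities of 6983, 27678 and 7996 on WT replicates 1, 2 and 3 and of 5256 to 9201 on the N1-IC arrays. By summed intensity the list was therefore high on WT replicate 2, where Fcer1a and Epx were at their highest. It was not high by this measure on N1-IC replicates 2 and 3, where both genes were also high. By rank, 12 of the 17 genes had N1-IC replicate 3 among their 3 highest arrays, against 16 for WT replicate 2 and 5 to 7 for the remaining arrays. The late granulocyte list (11 of 13 genes measured) had a summed intensity of 9140 on WT replicate 1, where Epx and Prg2 were lowest, against 62105 to 82301 on the other 5 arrays. It was not low on N1-IC replicate 1, at 74847, where Prg2 at 9.10 and Epx at 6.13 were the lowest of the N1-IC group. The progenitor and primary granule list (11 of 12 genes measured) summed to 80023 to 83653 over the 6 arrays, a sum carried largely by Mpo, Elane, Prtn3 and Ctsg. Within it Cd34, a gene of the sort gate, was lower on every N1-IC array, at 11.69, 11.52 and 11.33 in WT and 11.04, 10.05 and 11.28 in N1-IC (log2 fold change of -0.72 ± 0.32, limma adjusted p = 0.618). The list of other granzymes and cytotoxic lymphocyte markers (15 of 16 genes measured) summed to between 10189 and 11241 on WT arrays and between 9302 and 11791 on N1-IC arrays. In limma 0 genes of any of these 4 lists passed, and the median log2 fold changes were -0.74, 0.87, -0.05 and -0.07 in the order given. Without WT replicate 2 the first of these medians was 0.024 and the second 1.499. That fit keeps WT replicate 1, the array where the late granulocyte list was low, which then weighs more in the WT mean. The median of that list without WT replicate 1 is not given here. No intensity on these arrays is 0, and the part of these cell types in the results was not tested.

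By name, the erythroid and megakaryocyte genes with the smallest p were Pf4, Gp9 and Itgb3, with log2 fold changes of -1.48, 0.66 and -1.20, and Rhd with -1.03 (-0.43 without WT replicate 2). The late granulocyte genes Lcn2, S100a8 and Chil3 had 0.87, 0.79 and 1.18 with overlapping groups, and Lcn2 had 1.33 without WT replicate 2. Each was lowest on WT replicate 1, an array that the fit without WT replicate 2 keeps, at 9.96, 11.67 and 10.08. The remaining arrays of both groups lay at 11.67 to 12.56 for Lcn2, 13.83 to 13.99 for S100a8 and 13.30 to 13.66 for Chil3. Mmp9, a gelatinase gene, was at 4.14, 7.36 and 7.01 in WT and at 8.59, 9.27 and 8.78 in N1-IC, higher on every N1-IC array (log2 fold change of 2.71 ± 0.84, limma adjusted p = 0.618). The Fc gamma receptor genes Fcgr3 and Fcgr2b had -0.25 and -0.16 and the cytokine receptor gene Flt3 had -0.36 (-0.19 without WT replicate 2). Of the cytotoxic list, Gzme, Gzmk, Prf1 and Ccl5 had -0.26, 0.17, -0.26 and -0.65. Without WT replicate 2 Gzme had -0.13 and Gzmk 0.065.

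On N1-IC replicate 3 further protease genes stood out beside Gzmb. Gzmb, Mcpt8 and Cma1 lie in a block of granule protease genes on chromosome 14, in the order of the RefSeq annotation, that runs from Cma1 through the mast cell protease genes, Ctsg and the granzyme genes to Gzmb. Of its 15 protease genes 13 were measured. Mcpt1, a chymase-like protease of mucosal mast cells, was at 2.34, 2.83 and 2.51 on the WT arrays, at 2.49 and 2.31 on N1-IC replicates 1 and 2 and at 7.36 on N1-IC replicate 3. Mcpt2, its neighbour, was at 4.59 on that array against 3.12 to 3.54 on the other 5, and Mcpt4 at 3.99 against 2.52 to 3.05. On the other 5 arrays Mcpt1, Mcpt2 and Mcpt4 lay below the lower quartile of their array, so the size of each difference depends on values near the floor. Mcpt2 and Mcpt4 were below the array median on N1-IC replicate 3 as well. The array, the block and the Mcpt genes were picked after the values were seen, with Gzmb the reason for looking, so these values are a description.

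Of the 13 measured genes 6 had their highest value on N1-IC replicate 3 (Cma1, Mcpt1, Mcpt2, Mcpt4, Gzmc and Gzmb), where 2802 of all 18194 genes did. Cma1 and Gzmc were above the highest of the other arrays by only 0.052 and 0.21 log2 units. The granzyme genes Gzmc, Gzmd, Gzme, Gzmf, Gzmg and Gzmn lay between 1.99 and 4.55 on all 6 arrays. Ctsg, a primary granule protease gene, was at 13.92 to 14.01. In the limma fit 0 of the 13 passed. The means of Mcpt1 were 2.56 ± 0.250 in WT and 4.05 ± 2.86 in N1-IC (SD, n = 3 each; limma adjusted p = 0.717). These proteases are close relatives, and cross-hybridisation between their probe sets was not tested. The cytokine gene Il4, expressed by basophils and mast cells and named here after its values were seen, was also highest on N1-IC replicate 3, at 6.15 against 4.14 to 4.72 on the other arrays. Other genes of these cells differed from Il4. The cytokine gene Il13 was lowest there, at 3.90 against 3.93 to 4.37 elsewhere. The granule list gene Hdc was at 8.77 there and at 10.14 on N1-IC replicate 1. Of the 26 measured regulators and receptors described below, 3 were highest on N1-IC replicate 3, as were 6 of the 14 other granule genes. Of the 15 other granzyme and lymphocyte genes 3 were highest on that array (Gzmc, Gzmk and Klrd1). The granzyme gene Gzma was at 5.35 there, at 6.55 on WT replicate 2 and at 3.22 to 4.25 on the remaining arrays. Nkg7 was at 13.36 there (13.05 to 13.43 elsewhere). The natural killer gene Klrd1 was at 3.29 there (2.17 to 2.97 elsewhere) and Ncr1 at 3.16 (2.89 to 3.23 elsewhere). The T cell gene Cd3e was at 4.70 (4.73 to 6.01 elsewhere) and the perforin gene Prf1 at 8.70 (8.79 to 9.35 elsewhere).

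**Figure D4:**
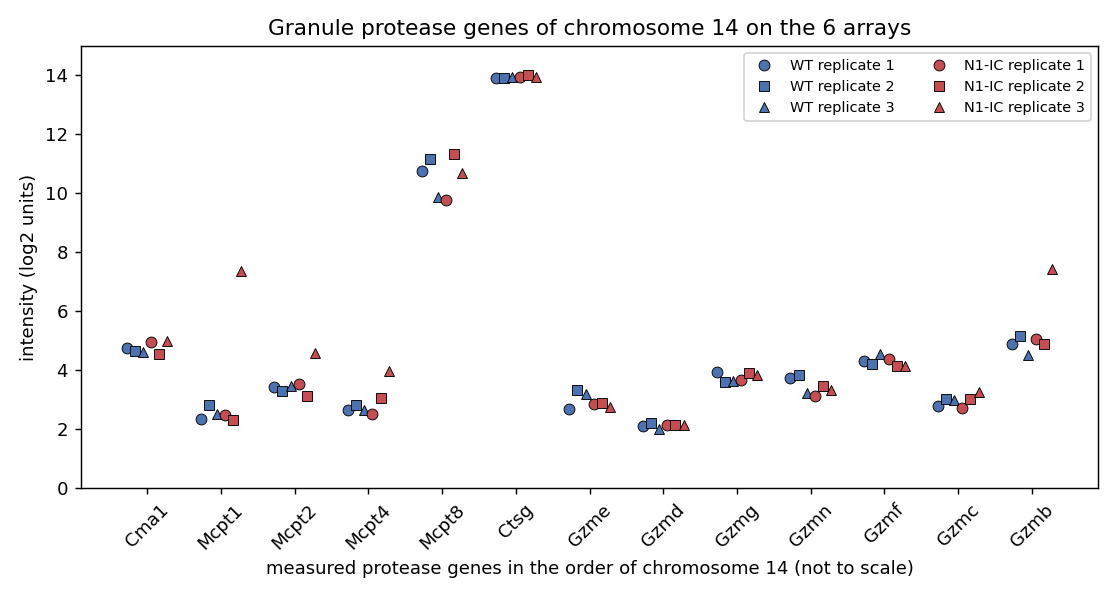
Log2 intensities of the 13 measured protease genes of the chromosome 14 block, in chromosome order and not to scale, on the 3 WT arrays (blue) and 3 N1-IC arrays (red), with the marker shape for the replicate number. N1-IC replicate 3 (red triangles) stands apart for Mcpt1, Mcpt2, Mcpt4 and Gzmb, and the 6 arrays lie together for Cma1, Ctsg and most granzyme genes.

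Other mast cell and basophil granule genes were examined from a list of 19, of which 14 were measured. In limma 0 of 14 passed, and 1 had an unadjusted p under 0.05 in each direction, where 4.14% of all genes did on the higher and 3.84% on the lower side. The median log2 fold change was 0.12. Slc18a2, the vesicular monoamine transporter that loads histamine into granules, lay between 6.52 and 6.85 on the WT arrays and between 7.05 and 7.45 on the N1-IC arrays, and its log2 fold change was 0.62 ± 0.15 (limma adjusted p = 0.618). Hpgds, which makes prostaglandin D2, had -0.28 ± 0.09 (limma adjusted p = 0.618), with WT values of 6.08 to 6.17 and N1-IC values of 5.77 to 5.90. The 3 arrays of each group did not overlap for Slc18a2, Hpgds and the tryptase gene Tpsg1 (log2 fold change of 0.25 ± 0.11), which are 3 of 14 genes, beside the 14.8% of all genes. Ndst2, a heparin-modifying enzyme gene, had -0.28 ± 0.14 with overlapping groups.

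Of the other eosinophil genes 7 of 12 were measured, 0 passed in limma and 2 had an unadjusted p under 0.05, both lower in N1-IC, where 3.84% of all genes were. Prg3, which encodes a homologue of major basic protein, was at 10.59, 8.38 and 10.85 on the WT arrays and at 7.97, 7.65 and 8.54 on the N1-IC arrays. WT replicates 1 and 3 were high and the other 4 arrays low, which differs from the order of Prg2. Its log2 fold change was -1.89 ± 0.67 (limma adjusted p = 0.618), and -2.67 ± 0.28 without WT replicate 2 (limma adjusted p = 0.337). Ccl6, a chemokine gene, lay between 11.45 and 11.75 on the WT arrays and between 10.87 and 11.29 on the N1-IC arrays, with a log2 fold change of -0.54 ± 0.15 (limma adjusted p = 0.618). The chemokine gene Ccl9 and the interleukin 5 receptor gene Il5ra had 0.33 ± 0.16 and 0.23 ± 0.18 with overlapping groups. Siglecf, which encodes a lectin of mature eosinophils and is named after its values were seen, ran against Fcer1a and Epx. It was at 11.45, 9.87 and 10.99 in WT and at 11.27, 9.54 and 9.71 in N1-IC, lowest on the 3 arrays where those genes were highest. Ccr3, the eotaxin receptor gene of mature eosinophils, lay at 2.51 to 2.96 on all 6 arrays.

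A list of IgE receptor signalling genes, which also holds the gamma chain gene Fcer1g and other surface receptor genes such as Cd200r1, gave no call. Of its 18 measured genes 0 passed the limma threshold and 0 had an unadjusted p under 0.05. Over all genes 7.98% were under that unadjusted p. In this list 3 of 18 had groups without overlap, a share near the 14.8% of all genes. The kinase gene Btk, which lies on chromosome X, and the phospholipase gene Plcg1 were lower on every N1-IC array, with log2 fold changes of -0.23 ± 0.10 and -0.25 ± 0.11. Inpp5d, the phosphatase gene SHIP1, was higher on every N1-IC array by a log2 fold change of 0.05 ± 0.08. Syk, the kinase that the receptor recruits, had -0.27 ± 0.17 and the inhibitory receptor gene Cd200r1 -0.37 ± 0.20, both with overlapping groups. The list's median log2 fold change was -0.10.

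Of 27 transcription factors, receptors and cytokines of these lineages 26 were measured and 0 passed in limma, with 1 gene at an unadjusted p under 0.05 in each direction, near the shares over all genes (4.14% higher and 3.84% lower). The groups did not overlap for 3 of the 26, beside 14.8% of all genes. Itgb7, an integrin that homes mast cell progenitors to tissues, was at 10.93, 10.45 and 9.38 in WT and at 8.45, 8.87 and 8.76 on the N1-IC arrays, with a log2 fold change of -1.55 ± 0.39 (limma adjusted p = 0.618). Every N1-IC array was below every WT array for this gene. Hes1, a Notch target that encodes a repressor, was higher on every N1-IC array with a log2 fold change of 1.20 ± 0.38 (limma adjusted p = 0.618). Gata2, a factor that mast cell and basophil development requires, was at 12.53, 11.68 and 11.26 in WT and at 9.75, 10.02 and 11.64 on the N1-IC arrays. Its groups overlapped, and its log2 fold change was -1.35 ± 0.57 (limma adjusted p = 0.618). Runx1 had -0.33 ± 0.15 (-0.21 without WT replicate 2) with overlapping groups, and Ikzf1, the Ikaros gene, was higher on every N1-IC array by 0.11 ± 0.09. Kit, the receptor of stem cell factor and a protein of the gate, had a log2 fold change of -0.003 ± 0.16.

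Among these regulators Tal1 and Gata1, named after their values were seen, had wide ranges over the arrays, of 5.98 and 5.22 log2 units. Tal1, a factor of erythroid and mast cell precursors, was at 4.32, 9.45 and 4.57 on the WT arrays and at 3.47, 6.90 and 6.89 on the N1-IC arrays, which is the division of arrays seen for Fcer1a. Gata1, which acts in erythroid, mast cell and eosinophil development, was at 4.17, 9.39 and 4.99 in WT and at 4.51, 4.79 and 6.64 in N1-IC. It was high on WT replicate 2 and less so on N1-IC replicate 3, but low on N1-IC replicate 2, where Fcer1a and Prg2 were high. The erythroid factor gene Klf1 was at 10.04 on WT replicate 2 and at 5.46 to 6.25 on the other 5 arrays. Its groups did not overlap, with N1-IC lower, and its log2 fold change was -1.72 ± 1.04 (limma adjusted p = 0.652), or -0.44 ± 0.22 without WT replicate 2.

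The genes most like the mean of the 9 genes over the 6 arrays were sought among 1306 other genes at or above the median gene level with a range of at least 1 log2 unit. The 10 highest Pearson correlations belonged to Ifitm1 (0.968), Spsb4 (0.954), Abi2 (0.946), Zmat3 (0.940), Tspan13 (0.935), Nlrc5 (0.929), Dnajc6 (0.927), Nrp2 (0.912), Plcb4 (0.883) and Grb10 (0.871). With 6 arrays and so many candidates these values are a description and carry no test. Ifitm1, an interferon-inducible membrane protein gene, was at 5.74, 9.16 and 5.94 on the WT arrays and at 6.64, 8.29 and 9.06 on the N1-IC arrays, so the same 3 arrays were high as for Fcer1a. Nrp2, the gene of the receptor neuropilin 2, was at 6.07, 8.85 and 6.34 in WT and at 7.22, 8.43 and 8.06 in N1-IC. When each array was left out in turn, all 10 genes stayed among the 100 highest. The remaining arrays had also served to pick these genes, so this is no separate check.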

How the data were processed

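RNA of 6 sorted samples was measured on Affymetrix arrays after amplification of 5 ng total RNA, per the labels' protocols. The authors deposited linear intensities for each probe set, from 3.60 to 24044, made with RMA per the submitters' processing notes. The RMA version was not given in the sources used here. Log2 was taken with no offset. Of 45101 probe sets 34958 had 1 gene symbol, 932 several and 9211 none, and the probe set with the highest mean stood for a gene. Groups were taken from the sample titles. The comparison of N1-IC with WT used limma 3.58.1 under R 4.3.3 without a replicate block, adjusted by Benjamini-Hochberg over 18194 genes. The number of arrays limits the precision. The 9 measured members and the 8 further lists (137 different genes, 118 measured) were chosen with earlier results of these data known. Beside the members, the text names from each list of related genes up to 4 genes with the smallest p and those without overlap between groups, at most 6 in all, and other list genes it names were picked after their values were seen. A list gene that is not measured had no probe set with its symbol alone. Alternatives covered other variance moderation, array weights, normalization, a filter, an offset, other probe set rules, a replicate block and each array left out.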

Additional observations from a re-analysis of the deposited data

How the results depend on the processing

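Of 16 alternatives, 139 values of the 9 genes resulted, 125 with the sign of the reported value, and 0 were called by limma. The number of members called stayed at 0 in all 16. The number of genes called over the whole table was 1 as reported, 3 with a mean-variance trend, 2 with array weights, 2 when genes under the median level were dropped (which leaves 4 of the 9 genes), 5 when probe sets were averaged per gene, 4 among all probe sets and 0 with the replicate number as a block. The fits without a single array gave 0 (without WT replicate 3) to 5 (without WT replicate 2). The log2 fold change of Mcpt8 was -0.083 with array weights and that of Tpsb2 -0.028 after further quantile normalization. Fcer1a had 0.89 and Cma1 0.099 with an offset of 16, and Cma1 0.093 after further quantile normalization. With 1 array left out it ran from -1.22 to 0.39 for Cpa3, from -0.36 to 0.42 for Mcpt8, from -0.050 to 0.080 for Tpsb2, from -0.23 to 1.84 for Epx from -0.25 to 0.96 for Prg2, from 0.33 to 1.39 for Ms4a2, from 0.63 to 3.48 for Fcer1a, from 0.12 to 1.38 for Gzmb and from 0.071 to 0.29 for Cma1, and the cause was not tested. The median log2 fold change of the members ran from 0.12 to 0.96 over these fits. The range of the members' mean over arrays was 1.69 log2 units as reported and 1.37 with an offset of 16. Over all genes same-numbered arrays did not all deviate together (correlations of deviations of 0.0093, 0.061 and -0.11). Between differently numbered arrays of the 2 groups these correlations ran from -0.092 to 0.093. With the replicate number as a block the standard error fell from 0.73 to 0.12 for Prg2, from 1.75 to 0.90 for Fcer1a and from 1.13 to 0.66 for Epx. It stayed at 0.95 for Cpa3 and 0.68 for Gzmb and rose from 0.11 to 0.13 for Tpsb2. The labels state no pairing, and beyond the correlations of deviations, which are a description, pairing was not tested. Low values may lie at background, and with 3 arrays a group the intervals of Fcer1a and Epx leave large changes in either direction undetectable.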
